A study of Mus musculus with 7 samples.

Results

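Collagen is made by fibroblasts, tendon cells and other stromal cells, and it has to be hydroxylated, folded, trimmed and crosslinked before it can carry load. The 10 genes described here encode enzymes and helpers of those steps. They are P4ha1, P4ha2, Plod1 and Plod2 (hydroxylation of proline and lysine), Serpinh1 (the collagen chaperone HSP47), Bmp1 and Pcolce (removal of the C-propeptide), and Lox, Loxl1 and Loxl2 (crosslinking). They were measured in quadriceps from knock-in mice that model spinal and bulbar muscular atrophy (SBMA), an inherited neuromuscular disease caused by an expanded polyglutamine tract. A probe was taken as a member if the array's gene name, or the current symbol of its RefSeq transcript, was 1 of these 10 names. This gave 18 probes for 10 genes, of 39429 probes and 31131 genes on the array.

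Total RNA from quadriceps was hybridized to Agilent mouse expression arrays with a single dye, 1 array per mouse and with no pooling. WT mice gave 4 of the arrays and AR113Q mice 3, all C57BL/6 and 3 months old. AR113Q mice are knock-in mice with an expanded CAG repeat in a humanized allele at the mouse locus, so that the mutant protein is made wherever that gene is active and not in muscle alone. The age precedes the motor dysfunction of this line, and the question was which transcripts had already changed. The labels call the controls WT, whereas the results text of the study describes controls with a humanized allele of normal repeat length, so whether humanization itself differs between the groups cannot be told from these sources.

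In the endoplasmic reticulum, prolyl 4-hydroxylases modify prolines of the new chains so that the triple helix is stable at body temperature. Lysyl hydroxylases modify lysines that later serve for sugar attachment and crosslinks, and HSP47 binds the finished helix. Outside the cell, BMP1 cuts off the C-terminal propeptide, with procollagen C-endopeptidase enhancer (Pcolce) binding the propeptide and speeding the cut. Lysyl oxidases then oxidize lysines of collagen and elastin, the first step of covalent crosslinking. In muscle, this matrix forms the endomysium around each fiber and the tendon-like sheaths that transmit force.

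Each array held 43020 non-control spots, and between 47.6% and 55.8% of its probes were well above background. Signals were set on a log2 scale and quantile normalized, and differences are given as AR113Q minus WT. A probe was tested if 3 or more of the 7 arrays read it well above background, and a gene was represented by its brightest tested probe, which gave 16577 genes. A gene was called, here also upregulated or downregulated, at an adjusted p no higher than 0.05 in limma and a log2 fold change of 1 or more in either direction. Of all genes tested, 13.1% were downregulated and 11.2% upregulated (24.3% together), so that changes were common throughout these arrays. The arrays lay on 5 slides, and slide 2 alone held a pair of genotypes, with WT replicate 2 beside AR113Q replicate 1. The mean log2 signal of 7 skeletal muscle fiber genes lay between 16.4 and 17.0 on every array, as the tissue label has it.

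Transcripts of 7 of the 10 genes were reduced in AR113Q muscle, and 1 was raised. Of the 10 genes, 7 were downregulated (Pcolce, Serpinh1, Loxl2, P4ha2, Bmp1, P4ha1 and Loxl1), Lox was upregulated, and the lysyl hydroxylases Plod1 and Plod2 were not called. The share downregulated was 70%, beside 13.1% of all genes tested, and the median log2 fold change was -1.21, beside -0.01 over all genes. All 18 probes were tested, of which 11 were called lower, 2 higher and 5 not called, where 12.6% of all probes were called lower and 12.2% higher (24.8% together). Without the fold threshold 9 of 10 genes passed the adjusted p, beside 43.5% of all genes. In 9 of 10 genes the AR113Q and WT arrays did not overlap, 8 of them lower and 1 higher, whereas 25.1% of all genes were lower and 24.2% higher without overlap, 49.3% together. In whole muscle, fewer cells that make collagen and less RNA per such cell cannot be told apart.

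**Figure D1:**
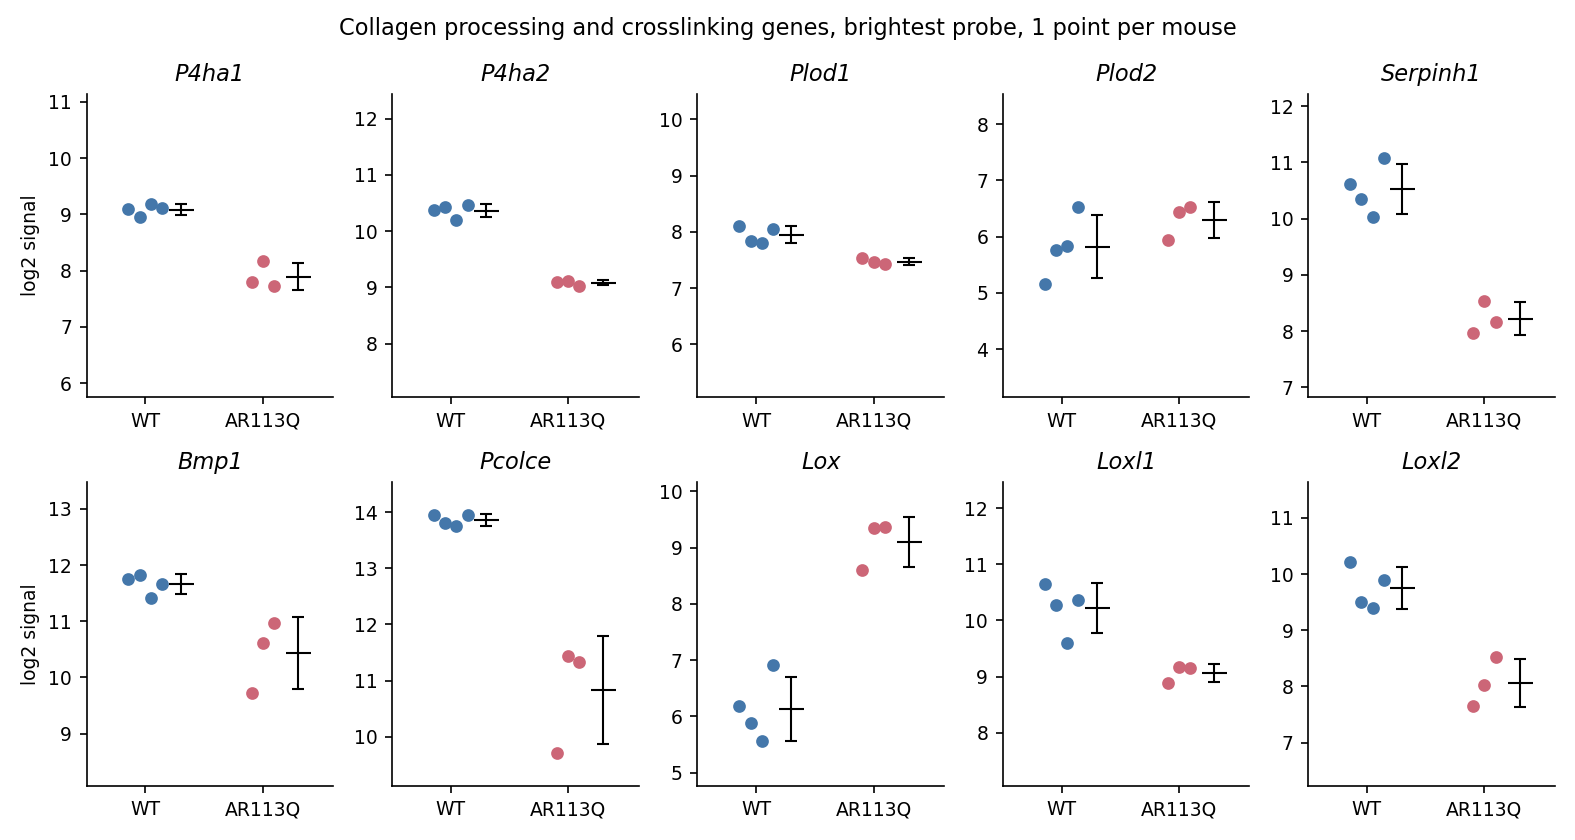
Log2 signal (y axis, each panel spanning the same number of log2 units) of the brightest probe of each of the 10 genes, 1 point per mouse, in 4 WT (blue) and 3 AR113Q (red) muscles, with the mean and SD beside the points. The AR113Q points lie below every WT point in 8 panels and above every WT point in the Lox panel, and the groups overlap only for Plod2.

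Both prolyl 4-hydroxylase genes were downregulated, with little spread between mice. P4ha1 encodes the catalytic subunit that most cells use, and its brightest probe read 9.10, 8.94, 9.18 and 9.11 in WT replicates 1 to 4 and 7.80, 8.16 and 7.72 in AR113Q replicates 1 to 3 (log2 signal). The lowest WT mouse was thus well above the highest AR113Q mouse. The log2 fold change was -1.19 (SE 0.16, adjusted p = 0.00101), a 2.28-fold lower signal. A second P4ha1 probe gave -1.25 (SE 0.18, adjusted p = 0.00125), although it was dim and well above background on only 2 of 3 AR113Q arrays. P4ha2, which encodes an alternative catalytic subunit, read 10.37, 10.42, 10.20 and 10.46 in WT and 9.10, 9.11 and 9.03 in AR113Q mice. The SD between AR113Q mice was 0.04 (n = 3), the smallest of the 18 probes, and the log2 fold change was -1.28 (SE 0.14, adjusted p = 0.00042). On slide 2 alone the log2 differences were -1.15 for P4ha1 and -1.32 for P4ha2. The P4ha1 calls were not kept in every processing setting. With normexp correction and with the authors' normalized values the log2 fold change was -0.90 and -0.82 by the brightest probe and -0.23 and -0.12 by the second (adjusted p = 0.0769 and 0.142), none of them called.

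Both genes belong to those that low oxygen can induce through hypoxia-inducible factors, whose core motif is ACGTG or GCGTG. The starts of both promoters are shown because the 2 genes moved together and carry this motif repeatedly. The sequences are from RefSeq on GRCm38.p6, on the plus strand, and run up to the base before the first annotated base of the gene, which for P4ha1 lies upstream of the start used for the windows of 300 bases given after the sequences. Capitals mark the motif on either strand, so that CACGT and CACGC are matches on the opposite strand.
P4ha1, chr10:59323046-59323196: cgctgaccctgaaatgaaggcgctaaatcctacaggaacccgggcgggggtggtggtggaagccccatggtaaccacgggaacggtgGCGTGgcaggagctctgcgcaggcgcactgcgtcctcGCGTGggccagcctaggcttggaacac
P4ha2, chr11:54100674-54100923: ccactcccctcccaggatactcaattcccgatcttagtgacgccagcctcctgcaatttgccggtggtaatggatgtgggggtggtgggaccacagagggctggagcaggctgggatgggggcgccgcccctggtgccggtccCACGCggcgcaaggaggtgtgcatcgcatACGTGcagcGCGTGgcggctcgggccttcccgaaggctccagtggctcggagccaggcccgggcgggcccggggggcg
Windows of 300 bases around the gene start were available for 5 members, and each held the motif at least once. There were 4 matches for P4ha2, 3 for P4ha1, 2 for Plod1 and 1 each for Serpinh1 and Pcolce. Of 32851 such windows in the same table, 43.8% held at least 1 match, 8.9% held at least 3 and 3.86% held at least 4. A match describes letters in the window and is no evidence of binding. Windows for Bmp1, Lox, Loxl1, Loxl2 and Plod2 were not used here.

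The lysyl hydroxylase genes were not called in either direction. Plod1 encodes the enzyme that hydroxylates lysines in the helical part of collagen, and its brighter probe read 8.10, 7.84, 7.80 and 8.06 in WT and 7.53, 7.46 and 7.43 in AR113Q mice. All AR113Q mice lay below all WT mice, but the log2 fold change of -0.47 (SE 0.15, adjusted p = 0.0332) was under the fold threshold. Its other probe read 5.99 to 6.21 in WT and 5.99 to 6.33 in AR113Q mice, with a log2 fold change of 0.02 (95% confidence interval -0.34 to 0.37, adjusted p = 0.931). The dimmer probe was at -0.18 with scaling to the 75th percentile and between -0.04 and -0.03 with the other background settings and the authors' values, never called. For the brighter probe no genome position could be read from the array annotation, whereas the dimmer probe had one on chromosome 4. As the probes differ, the first 30 of 60 bases of each are shown.
Plod1 A_51_P320304: aggagatggaacactatggccagtggtctc
Plod1 A_55_P2169784: caaatcaatatcagcctggaccatcgctgc
Plod2 encodes the enzyme that hydroxylates lysines in the telopeptides, the sites that give the stable crosslinks of scarred tissue. It read 5.16, 5.76, 5.84 and 6.54 in WT and 5.93, 6.43 and 6.52 in AR113Q mice, and the groups overlapped. Its log2 fold change was 0.47 (adjusted p = 0.252), and the 95% confidence interval of -0.25 to 1.20 spanned 0 and reached past the fold threshold. Among the hydroxylase genes, 2 of 4 were downregulated and the median log2 fold change was -0.83.

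Serpinh1, the chaperone that holds procollagen helices together in the endoplasmic reticulum, showed the largest fall of the genes that act inside the cell. Its probe read 10.62, 10.36, 10.04 and 11.08 in WT and 7.97, 8.54 and 8.16 in AR113Q mice. The lowest WT mouse lay above the highest AR113Q mouse, and the SD was 0.44 (n = 4) in WT and 0.29 (n = 3) in AR113Q mice. Its log2 fold change was -2.30 (SE 0.26, adjusted p = 0.000477), a 4.92-fold lower signal. With any 1 array left out it lay between -2.46 and -2.11 and was called each time.

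Pcolce had the largest decrease of the 10 genes. It read 13.94, 13.80, 13.74 and 13.95 in WT and 9.72, 11.43 and 11.33 in AR113Q mice. The WT mice were almost alike, with an SD of 0.10 (n = 4), whereas AR113Q replicate 1 lay well below the other AR113Q mice and the SD in that group was 0.96 (n = 3). This was a log2 fold change of -3.03 (SE 0.39, adjusted p = 0.00072), an 8.16-fold lower signal. Without AR113Q replicate 1 it was -2.48 and still called, and on slide 2, which holds that mouse, it was -4.08.

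Bmp1, the proteinase that Pcolce assists, was downregulated by its brightest probe and less clearly than Pcolce. That probe read 11.76, 11.82, 11.41 and 11.67 in WT and 9.73, 10.62 and 10.96 in AR113Q mice, again with replicate 1 lowest. The log2 fold change was -1.23 (SE 0.29, adjusted p = 0.00948). This call rested on 1 mouse, since without AR113Q replicate 1 the log2 fold change was -0.87 (adjusted p = 0.0122) and under the threshold, and on slide 2 alone the difference was -2.09. The other Bmp1 probes had log2 fold changes of -1.09 (adjusted p = 0.00348), called, and -0.68 (adjusted p = 0.0347), not called. The called one was at -0.64 with normexp correction and -0.51 with the authors' normalized values, and so not called there, while the brightest was called with both (-1.17 and -1.15). The array annotation assigns a non-coding transcript to 1 of the probes and a coding transcript to the others, and the first 30 of 60 bases of each are shown for that reason.
Bmp1 A_55_P2006703 (coding transcript, chr14:70874370-70874429): aggcccactggctcatcagccacaccaggg
Bmp1 A_55_P2006698 (non-coding transcript, chr14:70886415-70886474): tgtgacatttcctgttgtgaagtaaaagag
Bmp1 A_55_P2006708 (coding transcript, chr14:70890355-70890414): ggcccccacccagtaccgtatctccctgca
Positions are those of the array annotation, whose genome build the array files do not name and which differs from GRCm38.p6, and whether each lies in coding sequence or in a UTR was not analysed here. The 3 probes moved in the same direction, and in each of them AR113Q replicate 1 was the lowest mouse and all AR113Q mice lay below all WT mice.

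The lysyl oxidase genes split, with Lox higher and both Loxl1 and Loxl2 lower in AR113Q muscle. Lox, the main collagen and elastin crosslinking oxidase, read 6.18, 5.89, 5.57 and 6.90 in WT and 8.60, 9.35 and 9.37 in AR113Q mice. Every AR113Q mouse was above every WT mouse, and the log2 fold change was 2.97 (SE 0.34, adjusted p = 0.000455), a 7.84-fold higher signal. The second Lox probe rose as well, from 5.15 to 6.53 in WT to between 7.60 and 8.43 in AR113Q mice, a log2 fold change of 2.32 (SE 0.34, adjusted p = 0.00129). Both were smaller with the authors' normalized values, at 1.49 and called for the brightest probe and at 0.85 and not called for the second, and with normexp correction they were 1.81 and 1.16, both called.

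Loxl2, an oxidase that acts on basement membrane collagen among other substrates, was called lower by all 3 of its probes. The brightest read 10.21, 9.50, 9.40 and 9.89 in WT and 7.66, 8.02 and 8.52 in AR113Q mice, and the groups were far apart. Its log2 fold change was -1.68 (SE 0.27, adjusted p = 0.00188), and those of the other probes were -2.25 (adjusted p = 0.000607) and -1.47 (adjusted p = 0.00283). With normexp correction these 2 were at -0.93 and -0.87 and with the authors' normalized values at -0.61 and -0.68, not called, whereas the brightest was at -1.30 and -1.21 and called. Loxl1, which is needed for elastic fibers, read 10.64, 10.28, 9.60 and 10.36 in WT and 8.88, 9.17 and 9.15 in AR113Q mice by its brighter probe. WT replicate 3 was the lowest WT mouse and the closest to the AR113Q mice. The log2 fold change was -1.15 (SE 0.25, adjusted p = 0.00711). The dimmer Loxl1 probe fell by less, its log2 fold change being -0.79 (adjusted p = 0.0337), and was not called. The first 30 of 60 bases of both are given because the call differs between them.
Loxl1 A_51_P304239: aacgtggtgagatgcaacatccactacaca
Loxl1 A_55_P2096226: aactacgtgcaggcatccacatacgtgcag
Loxl1 also fell short of the threshold with normexp correction (-0.97), with the authors' normalized values (-0.94) and as the mean over its probes (-0.97), always in the same direction. The longest run of bases shared by probes of different members was 9, between Lox and Loxl1.

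**Figure D2:**
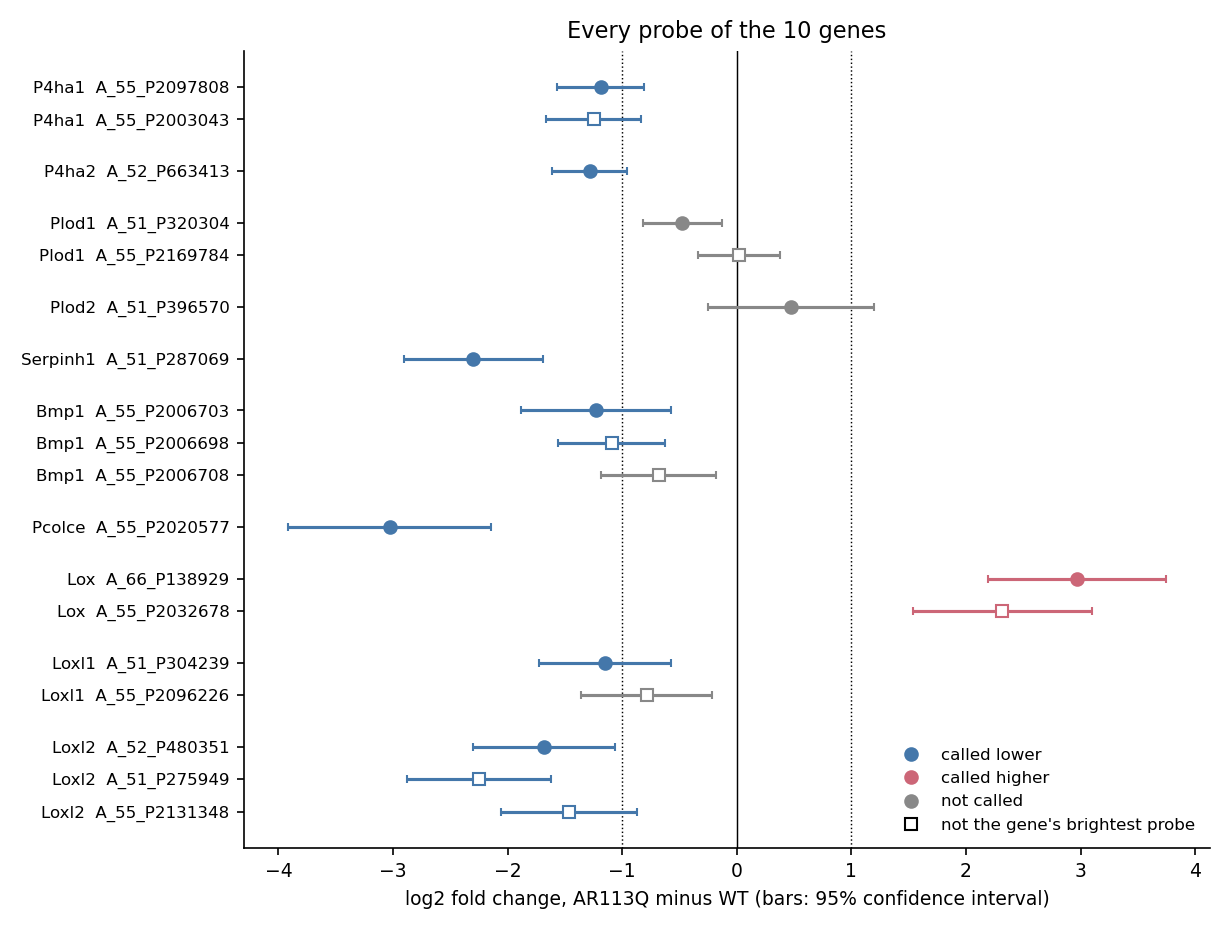
Log2 fold change (x axis, AR113Q minus WT) of all 18 probes of the 10 genes, with 95% confidence intervals from limma, filled circles for each gene's brightest probe and open squares for its other probes. Dotted lines mark the fold threshold of 1 in either direction, the 2 Lox probes lie to the right of it, and both Plod1 probes and the Plod2 probe lie between the lines.

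Few of the other genes of collagen processing were called. Of 26 such genes on the array, 22 were tested, of which 3 were downregulated and 1 upregulated, with a median log2 fold change of -0.24. That is 13.6% lower and 4.55% higher, beside 13.1% and 11.2% of all genes tested. Adamts3, Tll2, Mep1a and Mep1b, all propeptide proteinases, were too dim to be tested.

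Among 15 other folding enzymes and chaperones of the endoplasmic reticulum, Colgalt2, a collagen galactosyltransferase, was called lower (fitted log2 fold change -2.04, adjusted p = 0.00055), but only 1 AR113Q array read it well above background. It passed the filter through WT, and the difference was -0.55 with normexp correction and -0.30 with the authors' normalized values. Tmem38b, an endoplasmic reticulum cation channel needed for collagen modification in bone, was upregulated by 1.32 on the log2 scale (adjusted p = 0.0164), but by 0.87 and so no longer called without AR113Q replicate 1. Crtap, P3h3 and Plod3, the first 2 of the prolyl 3-hydroxylase machinery and the last the third lysyl hydroxylase, had log2 fold changes of -0.93, -0.91 and -0.82. These had adjusted p-values of 0.00412, 0.00455 and 0.00400, and none of them reached the fold threshold. P4hb, the partner subunit that P4ha1 and P4ha2 both need, was at -0.27 (adjusted p = 0.314), and Ppib, a prolyl isomerase of the same complex as Crtap, was at -0.35 (adjusted p = 0.0884). P4ha3, P3h1, P3h2, P3h4, Fkbp10, Fkbp14, Colgalt1 and Mia3 ranged from -0.58 to 0.62 and were not called.

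Among the other propeptide proteinases, Adamts14, which removes N-propeptides, was downregulated, at -1.46 (adjusted p = 0.00104). Adamts2, with the same activity, was not called by its brightest probe (0.69, adjusted p = 0.0963), whereas its dimmer probe was called higher (1.72, adjusted p = 0.00837). Pcolce2, the relative of Pcolce, was at -0.80 (adjusted p = 0.0256) and Tll1, a relative of Bmp1, at 0.37 (adjusted p = 0.362). Of the other crosslinking enzymes, Loxl3 was at -1.72 (adjusted p = 0.000936) and was well above background on 2 of 3 AR113Q arrays. Loxl4 was at -0.82 (adjusted p = 0.272, but at -0.11 without AR113Q replicate 3) and Tgm2, a transglutaminase, at 0.62 (adjusted p = 0.0201), both not called. The 4 calls among these genes were all lost with normexp correction, with the mean signal without background subtraction and with the authors' normalized values.

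**Figure D3:**
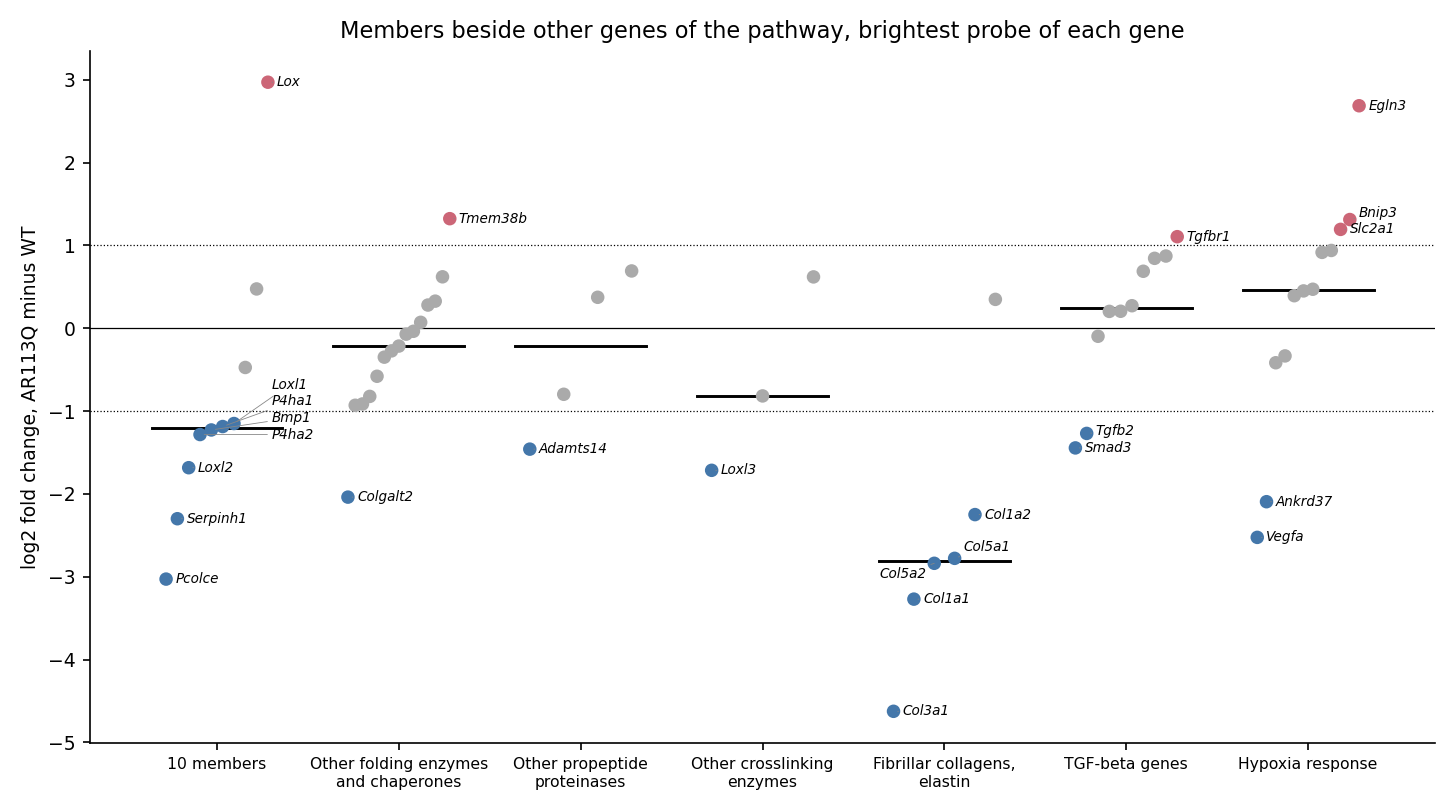
Log2 fold change (y axis, AR113Q minus WT) of the brightest probe of each tested gene in 7 lists, with 1 point per gene, blue for downregulated, red for upregulated, grey for not called, and a black bar for the median of the list. The medians are -1.21 for the 10 members and -2.81 for collagens and elastin, between -0.82 and -0.21 for the other processing genes (the lowest, of 3 crosslinking genes, being -0.11 without AR113Q replicate 3), and above 0 for the TGF-beta and hypoxia lists. Col5a2 is drawn at its fitted value although its AR113Q signal is only a bound, and at that bound the median of collagens and elastin is -2.51.

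Transcripts of the collagen substrates of these enzymes were lower too. Col1a1 and Col1a2, the chains of type I collagen, had log2 fold changes of -3.27 (adjusted p = 0.00218) and -2.25 (adjusted p = 0.00244), that of Col1a1 being -2.49 and still called without AR113Q replicate 1. Col3a1, the chain of type III collagen, was at -4.62 (adjusted p = 0.000101) and Col5a1, a chain of type V collagen, at -2.78 (adjusted p = 0.000121). No AR113Q array read Col5a2 well above background, so that the probe was tested through its WT signal alone. On the background-subtracted scale it was at least 2.71-fold lower in AR113Q mice (adjusted p = 0.00024 in the fit), but the difference was smaller and not called with normexp correction (-0.44) or the authors' normalized values (-0.22), the AR113Q level being bounded by the dimmest probes well above background on each array. Eln, which encodes elastin, was at 0.35 and not called (adjusted p = 0.431). Of the 6 substrate genes 5 were downregulated, Col5a2 as a bound, and the median log2 fold change was -2.51 with Col5a2 at its bound and -2.81 with its fitted value.

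Transforming growth factor beta is the best known inducer of collagen and lysyl oxidase genes. Of 11 genes of this pathway 10 were tested, all but Smad7, and their median log2 fold change was 0.24. Smad3 (-1.44, adjusted p = 0.0386) and the ligand gene Tgfb2 (-1.27, adjusted p = 0.00139) were downregulated, and the receptor gene Tgfbr1 (1.11, adjusted p = 0.0238) was upregulated. That is 20% lower and 10% higher, beside 13.1% and 11.2% of all genes tested. A dimmer Smad3 probe was at -0.35 (adjusted p = 0.446) and not called. A dimmer Tgfbr2 probe was called higher (1.33, adjusted p = 0.00192) where the brightest was at 0.27 and not called. The Smad3 call was lost without any 1 array other than AR113Q replicate 3, its value lying between -1.66 and -0.77. It was also lost as the mean over its probes (-0.90, adjusted p = 0.109). The same held with all probes tested (-1.44, adjusted p = 0.099) and with the replicate number as a block (-1.43, adjusted p = 0.078). Tgfbr1 was not called without AR113Q replicate 2 (0.95) or WT replicate 1 (0.83), nor with normexp correction (0.61), the mean signal without background subtraction (0.66), the authors' normalized values (0.46), the mean over its probes (0.95), slide as a fixed effect (0.35) or all probes tested (1.11, adjusted p = 0.0615). Ccn2, a target gene of this pathway, was at 0.87 (adjusted p = 0.185) and not called.

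Of 13 hypoxia response genes 12 were tested, with no probe for Ca9, of which 3 were upregulated (25% beside 11.2% of all genes), 2 downregulated (16.7% beside 13.1%) and 7 not called, with a median of 0.46. Egln3, an oxygen sensor, rose by 2.69 (adjusted p = 0.000482), Bnip3, a mitophagy receptor, by 1.31 (adjusted p = 0.00522), and the glucose transporter gene Slc2a1 by 1.19 (adjusted p = 0.00321), on the log2 scale. Vegfa, the angiogenic growth factor, had a log2 fold change of -2.52 (adjusted p = 0.000128) and Ankrd37 one of -2.09 (adjusted p = 0.000203). Bnip3 missed the fold threshold with scaling to the 75th percentile (0.97), Slc2a1 with normexp correction (0.95) and the authors' normalized values (0.90), and Ankrd37 with the latter (-0.80). Of the 12 genes tested 8 were higher and 4 lower in AR113Q mice. Adm (0.94, adjusted p = 0.00974) and Arnt (0.92, adjusted p = 0.00391) were under the fold threshold by their brightest probes. Genes of this list were thus called in both directions, and a link of P4ha1, P4ha2 or Lox to them was not tested.

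Some markers of the cells that make collagen were downregulated as well. Of 9 fibroblast markers 4 were downregulated (44.4%, beside 13.1% of all genes tested) and 0 upregulated, with a median log2 fold change of -0.96. Their mean log2 signal lay between 11.7 and 12.1 in WT and between 10.1 and 11 in AR113Q mice. The genes called were Clec3b (-3.24), Pi16 (-2.98), Cd34 (-1.88) and Mfap5 (-1.82), whereas Pdgfra, the receptor that defines muscle fibroblasts, was at -0.27 (adjusted p = 0.424) and not called. Of 6 tenocyte markers 3 were downregulated (50%), namely Tnmd (-2.79), Fmod (-1.65) and Scx (-1.13). The mean log2 signal of the list lay between 9.05 and 10.3 in WT and between 6.87 and 8.88 in AR113Q mice. Without AR113Q replicate 1 the counts called lower were 4 of 9 and 1 of 6, with medians of -0.70 and -0.55, Fmod being at -0.97, Scx at -0.81 and Tnmd at -1.82, and Tnmd was at -3.42 without AR113Q replicate 3. The tenocyte count was also 1 of 6 without WT replicate 3 (Fmod at -1.41 and Scx at -0.91, with adjusted p-values of 0.0813 and 0.0507) and 2 of 6 without any other WT replicate, Fmod being lost without replicate 1 (-1.58) or 2 (-1.79) and Scx without replicate 4 (-1.10). With the authors' normalized values Tnmd was at -0.79 and Scx at -0.96, neither called. Mkx was well above background on 2 WT and 2 AR113Q arrays and Tnmd on 2 of 3 AR113Q arrays, and all other markers of both lists were so on all 7. The mean level of both lists was lower on every AR113Q array than on every WT array, like that of the members called lower and unlike Lox. The same held for the adipocyte markers given next, at 9.917 to 10.93 in WT and 8.575 to 9.489 in AR113Q mice. The part of any of these cells in the results was not tested.

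Of 6 adipocyte markers 4 were downregulated (66.7%, beside 13.1% of all genes tested), with a median log2 fold change of -1.21. They were Adipoq (-2.71), Retn (-2.31), Plin1 (-1.39) and Cidec (-1.02), and with 1 array left out between 2 and 4 were called. Cidec was not called with normexp correction (-0.90), without background subtraction (-0.91) or with scaling to the 75th percentile (-0.93). With the authors' normalized values neither Cidec (-0.89) nor Plin1 (-0.985) was called. Of 8 macrophage markers 2 were downregulated, Adgre1 (-1.94) and Csf1r (-1.15), and Cd163 (1.18) was upregulated. That is 25% lower and 12.5% higher, beside 13.1% and 11.2% of all genes tested. Csf1r was at -0.99 without WT replicate 1 and Cd163 at 0.93 without AR113Q replicate 2, neither called. Cd163 was also not called with normexp correction (0.49) or without background subtraction (0.48), and with the authors' normalized values Adgre1 was at -0.73 and not called. Vwf (-1.05) was the only call among 6 endothelial markers (16.7%) and Cspg4 (-1.29) the only one among 5 smooth muscle and pericyte markers (20%). Vwf was not called without AR113Q replicate 2 (-0.84) or WT replicate 3 (-0.96). Nor was it called with scaling to the 75th percentile (-0.95) or the authors' normalized values (-0.995). Cspg4 was not called with normexp correction (-0.84) or the authors' normalized values (-0.70). None of 7 skeletal muscle fiber genes was called by its brightest probe, and their median was -0.13 (between -0.38 without AR113Q replicate 3 and -0.06 without WT replicate 4). Ckm was at -0.80 (adjusted p = 0.0101) and under the fold threshold. A dimmer probe of Pvalb was called lower (-1.12, adjusted p = 0.00371) where the brightest was at -0.13. Several of these probes lay so high that quantile normalization gave them shared values, such as 17.873 for Acta1, Pvalb and Tnni2 on different arrays. A shift of such probes could be hidden, so that an unchanged level of fiber transcripts was not shown.

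The AR113Q mice were not alike in these genes. AR113Q replicate 1 was the lowest of the 3 for 7 of the 10 members, for 7 of 9 fibroblast markers, for 6 of 6 tenocyte markers and for 4 of 6 substrates. Among the members called lower this held for 5 of 7, and among all 2179 genes called lower it held for 1091. Among the members Pcolce showed the widest gap, with AR113Q replicate 1 at -4.14 from the WT mean and the other AR113Q mice at -2.42 and -2.53. Lox was highest in the other AR113Q mice, at 3.22 and 3.23 above the WT mean, beside 2.46 in replicate 1. Without AR113Q replicate 1, 7 of 10 genes were called, Bmp1 being the one lost, and 11 of 18 probes.

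**Figure D4:**
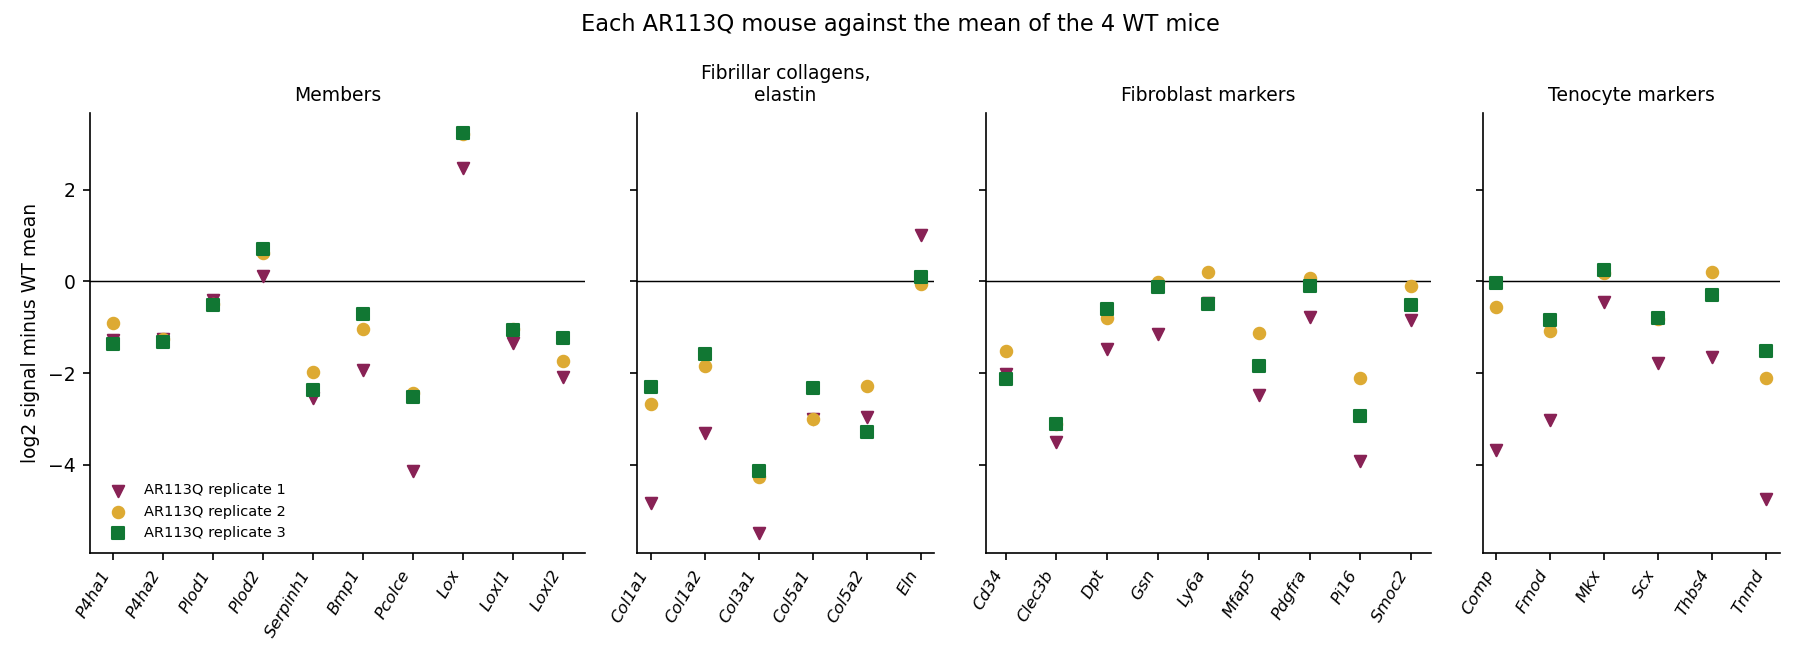
Log2 signal of each AR113Q mouse minus the mean of the 4 WT mice (y axis) for the 10 members, the collagen and elastin genes, and the fibroblast and tenocyte markers, with 1 symbol per mouse. AR113Q replicate 1 (triangles) lies lowest for 7 of 10 members and for 6 of 6 tenocyte markers, and all 3 mice lie above 0 for Lox.

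Taking 1 value per gene, the directions of the 10 genes held throughout, while the number called did not. The dimmer Plod1 probe, at 0.02 as reported, turned negative with the other scaling and background settings. For Plod2 the confidence interval spanned 0, so that its direction was not established. Each of the 10 values kept its sign in all 23 alternatives computed, 22 of them with a test. Several settings change the test and not the fold, so that 12 to 16 of the values per gene were distinct and differed from the one reported. P4ha2, Serpinh1, Pcolce, Lox and Loxl2 were called in 21 of these 22 settings, Bmp1 in 20, and P4ha1 and Loxl1 in 18. When slide was fitted as a fixed effect, leaving the comparison to the 2 arrays of slide 2, 0 members were called in limma, as were 0 of all genes tested (6158 at an unadjusted p of at most 0.05), and the log2 fold changes were -4.08 for Pcolce, -2.38 for Serpinh1, -1.84 for Loxl2, -1.40 for Loxl1, -0.31 for Plod1, 0.18 for Plod2 and 2.71 for Lox. Genotype and slide can therefore be told apart by this pair of mice alone.

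**Figure D5:**
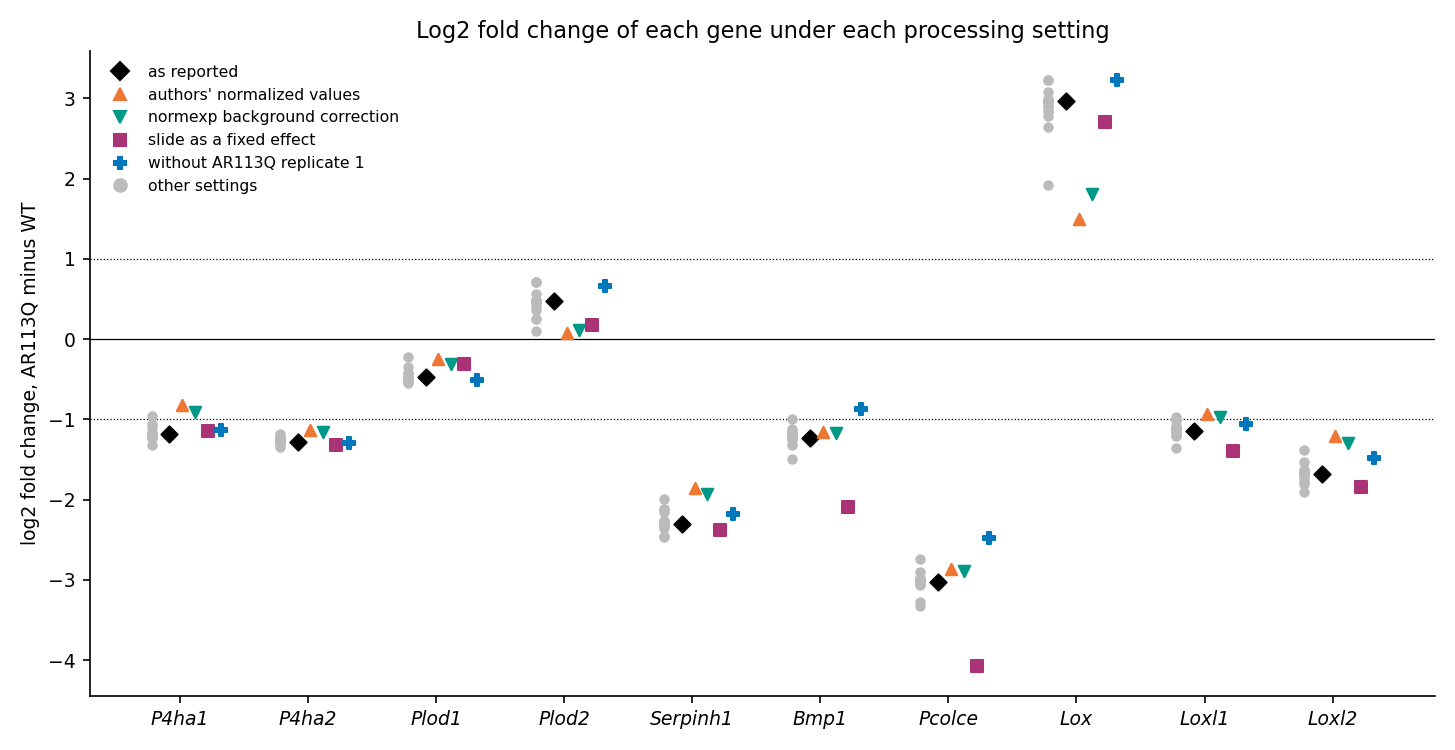
Log2 fold change (y axis, AR113Q minus WT) of the 10 genes under each processing setting, with black diamonds for the values reported, coloured symbols for 4 settings named in the legend and grey points for the rest. Every point keeps its side of 0, Lox ranges from 1.49 to 3.23 and Pcolce from -4.08 to -2.48, and P4ha1, Bmp1 and Loxl1 lie across the dotted fold threshold.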

How the data were processed

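Scanner output of 7 arrays (4 WT and 3 AR113Q mice) was used, extracted by the authors with Feature Extraction 10.7.3.1. The deposited intensity per spot was background-subtracted and not normalized between arrays. The authors also deposited log2 values, described in the methods as quantile normalized, which served as an alternative and held all 18 member probes. Log2 intensity was taken without outlier spots (94 to 151 per array) and control spots and was quantile normalized, and spots of a probe were averaged. Subtraction spreads dim signals most, so that log2 fold changes of dim probes depend on it. Of 39429 probes, 20991 were tested with limma 3.58.1 in R 4.3.3 (lmFit, eBayes, genotype only, Benjamini-Hochberg over all tested probes), a procedure also tested on simulated data. Symbols came from RefSeq accessions (28330 probes) or the array files. GRCm38.p6 was used for names and promoters only.

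All members are reported with every probe, and of the other lists all pathway and substrate genes and the genes called, with single dimmer probes and genes not called named after their values were seen. The members and gene lists were chosen with earlier results of these data known. Alternatives changed background correction, scaling, probe filter and summary, adjustment, outlier spots, variance trend, array weights, slide, replicate block, thresholds and the arrays used. The normexp correction added an offset of 50 to the signal. The number of arrays limits precision, and p-values measure the spread between mice together with that between slides. A few measured genes are left out of the text.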

Additional observations from a re-analysis of the deposited data

Results flagged for a closer look

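Of 115 genes and probes of the lists above, 3 had a WT mouse far from the other 3 by Dixon's test at the 95% level, and chance alone marks about 1 in 20. None of them is a collagen processing gene of the 10 members. The gap of the farthest mouse divided by the range of the 4 WT mice was 0.944 for Tgfb2 (replicate 3), 0.873 for P3h3 (replicate 1) and 0.833 for Ly6a (replicate 4). The groups did not overlap for Tgfb2 and P3h3, and they overlapped for Ly6a.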

How the results depend on the processing

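Of the alternative log2 fold changes of the 10 genes, 212 stayed on their side of the thresholds or within the spread between replicates, 15 no longer passed, 3 moved by more than that spread on slide 2 alone, and 0 changed direction. As reported, 8 member genes, 13 member probes and 4 other collagen processing genes were called. The member genes called were 6 (5 of them lower) with normexp correction and with the authors' normalized values, and 7 (6 lower) without background subtraction and with the mean over a gene's probes. The probes and the other genes called were 7 and 0 with normexp correction, 8 and 0 with the mean signal without background subtraction, and 6 and 0 with the authors' normalized values. The other genes called were 2 when all 7 arrays had to be well above background and 9 without a fold threshold. With slide as a fixed effect all 3 counts were 0. The values on slide 2 that moved were -0.31 for Plod1, -2.09 for Bmp1 and -4.08 for Pcolce. With 1 array left out, between 7 and 8 member genes, 11 and 13 member probes, and 3 and 6 other genes were called, the lowest member counts without AR113Q replicate 1. Over all genes, 4032 were called as reported, 1763 with normexp correction, 1904 without background subtraction, 1364 with the authors' values and 7214 without a fold threshold, and the cause of these differences was not tested.

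The replicate numbers did not pair the mice, since the deviations of same-numbered arrays correlated at 0.04, -0.02 and 0.16. With the replicate number as a block, 8 member genes, 13 member probes and 4 other genes were called. All arrays shared 1 scan date, so that date was not fitted.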
